A study of Rattus norvegicus with 91 samples.

Results

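The 9 genes described here give midbrain dopamine neurons their identity or mark them, and were measured in the ventral tegmental area of rats bred for high or low alcohol intake. They are the transcription factor genes Foxa2, Nr4a2, Otx2, En2 and Pitx3, the receptor and surface protein genes Ret, Gucy2c and Dlk1, and the calcium-binding protein gene Calb1. Members were chosen by name, as every probe set whose platform annotation gives a single gene symbol equal to 1 of these 9. This found 13 of 31042 probe sets, for 9 of 14217 genes: 3 for Ret, 2 each for Nr4a2 and Otx2, and 1 for each of the others. Each gene was measured in 91 animals, with 1 array per animal.

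The ventral tegmental area holds dopamine neurons that project to the ventral striatum and cortex. During development Foxa2 and Otx2 pattern the ventral midbrain from which these neurons arise, and Nr4a2 and Pitx3 then switch on and maintain genes for making and storing dopamine, as shown mostly in mice. The enzyme tyrosine hydroxylase, encoded by Th, makes the precursor of dopamine and is the usual marker of these cells, so Th served as the yardstick for covariation.

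The animals came from 5 pairs of selectively bred lines. Written high-consumption line first, they are HAD1/LAD1 and HAD2/LAD2 (high- and low-alcohol-drinking, 8 HAD1 and 10 LAD1 animals, 8 HAD2 and 9 LAD2 animals), P/NP (preferring and non-preferring, 9 P and 10 NP), AA/ANA (Alko alcohol and non-alcohol, 10 AA and 10 ANA) and sP/sNP (Sardinian preferring and non-preferring, 8 sP and 9 sNP). The labels give no transgene, treatment, time, age or sex, and no drinking history. Values are the authors' log2 signals of Affymetrix probe sets, a scale on which a difference of 1 is a factor of 2 in signal. Because value distributions differed by pair, line differences of members were taken within pairs. Those of HAD1/LAD1 and HAD2/LAD2 were also contrasted with each other. Ranges given for several pairs are not a comparison of levels. Precision is limited by how many arrays a line has.

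Some arrays outside the HAD and LAD lines did not group with their labelled pair. Arrays that were normalized together share nearly the same distribution of values, and clustering of these distributions, cut at 5 sets, gave runs of 20, 17 and 19 consecutive arrays where the labels give 19 P/NP, 20 AA/ANA and 17 sP/sNP arrays. The arrays labelled AA 1, AA 19 and ANA 20 lay in the set of another pair, so AA/ANA results of each member are given with and without them. Whether any label is misplaced was not tested. Arrays are called by their labels, which were not changed. The signal of dopamine neuron markers also varied between arrays. The mean signal of 4 dopamine neuron markers (Th, Slc6a3, Slc18a2 and Ddc) is given for its spread within pairs only. It ran between 13.37 and 14.23 in HAD1/LAD1 and between 12.96 and 13.93 in HAD2/LAD2. In AA/ANA it ran between 13.73 and 14.60, and in sP/sNP between 14.04 and 14.62. Arrays labelled P and NP ranged between 10.87 and 14.33, apart from P 10 at 8.70 and NP 8 at 8.30. These 2 arrays are described on their own, and P/NP differences and r with Th of each member are given without them too.

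No member passed the test between the high- and the low-consumption line in any of the 5 pairs. Each pair was fitted with limma over all 31042 probe sets, and a probe set was called at a Benjamini-Hochberg adjusted p under 0.05. None of the 13 member probe sets was called, whereas the share of all probe sets called was 3.02% in HAD1/LAD1, 4.51% in HAD2/LAD2, 0% in P/NP, 1.08% in AA/ANA and 0% in sP/sNP. Among the 65 tests of members, 3 had an unadjusted p under 0.05: Foxa2 in HAD1/LAD1, and Otx2 and Calb1 in AA/ANA. The share of all probe sets with such a p was 13.3% in HAD1/LAD1 (4133 probe sets) and 10.6% in AA/ANA (3294). In HAD2/LAD2 it was 13.4% (4163), in P/NP 2.09% (650) and in sP/sNP 3.77% (1169). Without P 10 and NP 8, the P/NP differences were 0.063 for Foxa2, 0.35 for Nr4a2, -0.13 for Otx2, -0.15 for En2, 0.029 for Pitx3, 0.13 for Ret, 0.39 for Dlk1, 0.28 for Gucy2c and -0.035 for Calb1, none called among 0% of all probe sets. Without AA 1, AA 19 and ANA 20, the AA/ANA differences were 0.059 for Foxa2, -0.12 for Nr4a2, -0.099 for En2, -0.0018 for Pitx3, 0.020 for Ret and 0.086 for Gucy2c. In every pair the range of the high-consumption line overlapped that of the low-consumption line for all 13 probe sets. The share of all probe sets with overlapping ranges was not counted, so the overlap is not shown to be particular to the members.

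The precision of this result differed by pair. With 1 probe set per gene, the 95% interval of the difference lay within 1.5-fold in either direction for 7 of 9 genes in HAD1/LAD1 and for 9 of 9 in HAD2/LAD2, AA/ANA and sP/sNP. In P/NP it did so for 1 of 9, because signals there were spread widely. Median differences of the 9 genes were -0.045 in HAD1/LAD1, 0.017 in HAD2/LAD2, -0.015 in P/NP, -0.097 in AA/ANA and 0.046 in sP/sNP. The medians over all 14217 genes were 0.0029, 0.0073, -0.013, -0.0065 and 0.0073 in the same order. The plot of log2 differences shows the estimates with their intervals.

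**Figure D1:**
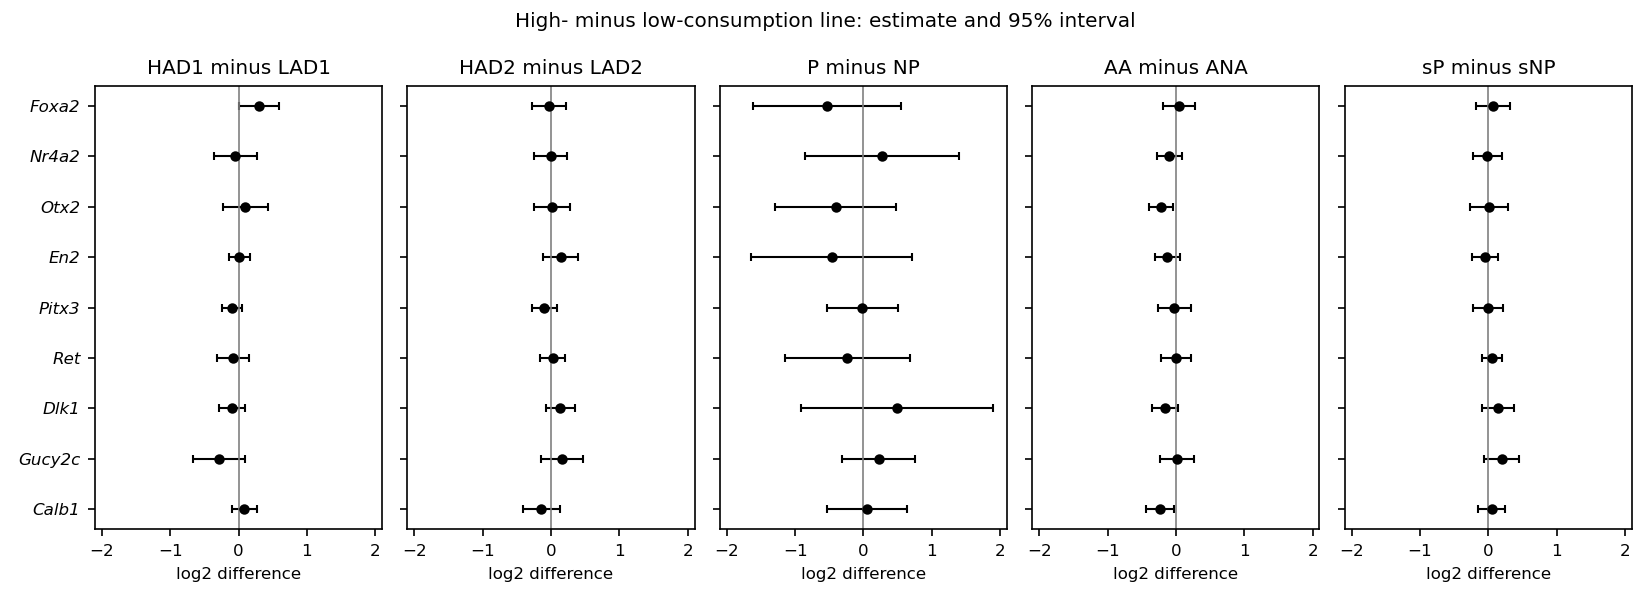
Log2 difference of 9 genes (rows) in each of 5 line pairs (panels), high- minus low-consumption line, with points for the limma estimate and bars for its 95% interval. No interval belongs to a called difference, and the P/NP bars are the widest, reaching 1.89 for Dlk1.

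Foxa2 encodes a forkhead factor that specifies the floor plate and stays on in adult dopamine neurons. Its lowest, median and highest signals were 9.63, 10.10 and 10.66 in HAD1, against 9.31, 9.90 and 10.15 in LAD1. The highest value was in HAD1 and the lowest in LAD1, but most values of both lines lay in the same range. The difference was 0.30 ± 0.14 (SE) with an unadjusted p of 0.0456 and a limma adjusted p of 0.36, so it was not called. In HAD2/LAD2 Foxa2 had 9.38, 9.98 and 10.21 in HAD2, against 9.67, 9.84 and 10.46 in LAD2, a difference of -0.035 ± 0.12. The change in difference between both pairs was 0.34 ± 0.19 (limma adjusted p = 0.509), also not called. That contrast called 0 of 13 member probe sets and 4.04% of all.

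In AA/ANA and sP/sNP the Foxa2 medians of both lines lay close together. It had 10.39, 10.88 and 11.06 in arrays labelled AA and 10.32, 10.80 and 11.15 in ANA. It had 10.29, 10.74 and 11.04 in sP and 10.24, 10.57 and 10.94 in sNP. In P/NP the mean difference of -0.54 ± 0.52 came with a lowest value of 5.43 in the array P 10, and it was 0.063 ± 0.14 without P 10 and NP 8.

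Nr4a2, also known as Nurr1, encodes an orphan nuclear receptor that is required for the dopamine phenotype. Signals of its brighter probe set 1369007_at were 10.25, 10.71 and 10.97 in HAD1, against 9.88, 10.81 and 11.22 in LAD1, and 10.16, 10.84 and 10.99 in HAD2, against 10.45, 10.74 and 10.97 in LAD2. Arrays labelled AA had 10.78, 11.06 and 11.35, against 10.76, 11.16 and 11.50 in ANA, and sP had 10.69, 11.11 and 11.50, against 10.80, 11.16 and 11.39 in sNP. The ranges of the lines of a pair overlapped, and LAD1 was spread more widely than HAD1. Differences of this probe set ran between -0.10 in AA/ANA and 0.28 in P/NP, with no sign shared by all pairs. The second probe set, 1387410_at, gave between -0.11 and 0.35 and followed the first over animals with r between 0.67 and 0.99.

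Otx2 encodes a homeodomain factor that in adult mice is kept on mainly in dopamine neurons of the ventral tegmental area. Its bright probe set 1375465_at read 9.58, 9.84 and 10.26 in arrays labelled AA, against 9.73, 10.11 and 10.32 in ANA. The lower AA arrays lay below nearly all ANA arrays, and the upper ones lay among them. The difference was -0.22 ± 0.086 (unadjusted p = 0.0198, limma adjusted p = 0.323), and -0.23 ± 0.097 without AA 1, AA 19 and ANA 20. In the other pairs it was 0.10 ± 0.16 in HAD1/LAD1, 0.017 ± 0.12 in HAD2/LAD2, -0.41 ± 0.42 in P/NP and 0.01 ± 0.13 in sP/sNP. The second probe set of Otx2, 1375394_at, was dim, with line means of at most 6.52, below the 40th percentile of all values (7.02). It did not follow the first over animals, with r between -0.33 and 0.03, so it is not used further.

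En2 encodes a homeodomain factor of the midbrain and rostral hindbrain that, with its relative En1, keeps mouse dopamine neurons alive. It had 10.29, 10.59 and 10.69 in HAD1, against 10.32, 10.48 and 10.82 in LAD1. Animals of sP had 10.27, 10.67 and 10.91, against 10.25, 10.75 and 10.94 in sNP. Its differences were 0.0087 ± 0.073 in HAD1/LAD1, 0.14 ± 0.12 in HAD2/LAD2, -0.46 ± 0.57 in P/NP, -0.13 ± 0.089 in AA/ANA and -0.046 ± 0.091 in sP/sNP. Pitx3, a homeodomain factor gene on which mouse substantia nigra neurons depend, was dim here. All its line means were at or below 6.39, under the 40th percentile, and its differences ran between -0.10 and -0.0091, negative in 5 of 5 pairs and never called, and 0.029 in P/NP without P 10 and NP 8. A probe set this dim can miss a change in the gene it stands for.

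**Figure D2:**
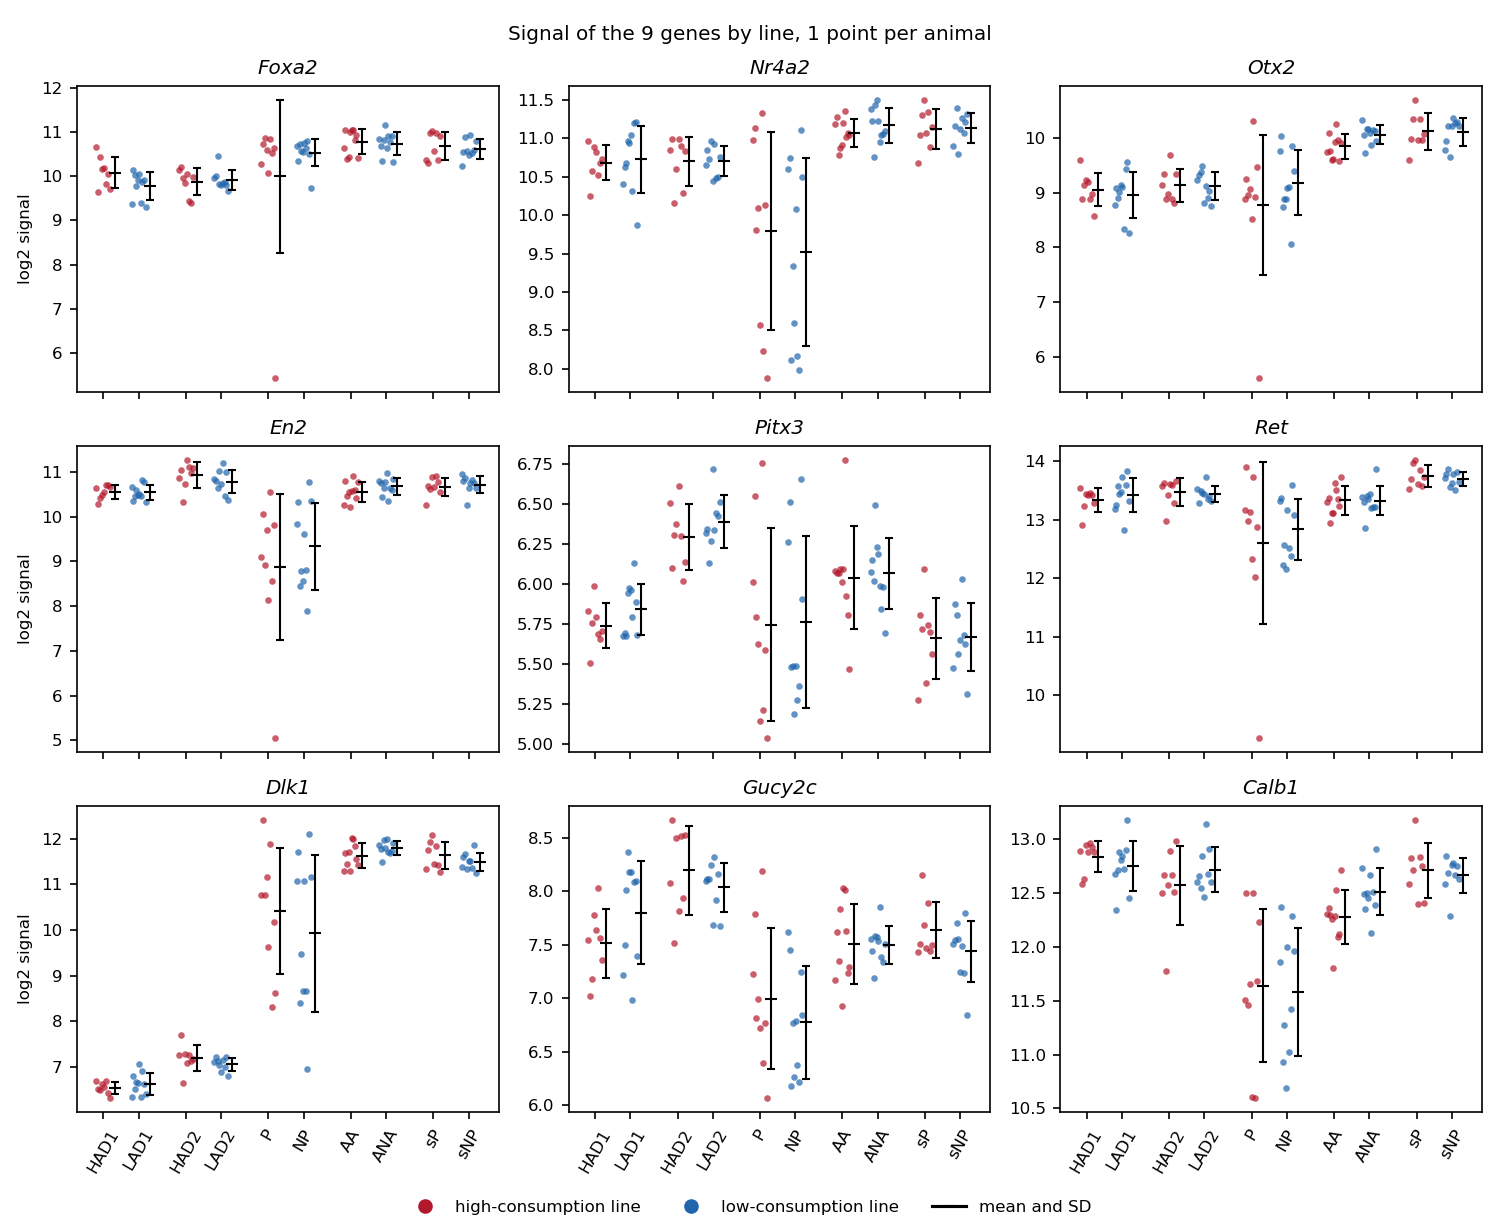
Log2 signal of 9 genes (panels) in 10 lines (x axis), with red for high- and blue for low-consumption lines, 1 point per animal, and a black bar for mean and SD. Lines of a pair overlap in every panel, and P and NP spread widest, except NP for Foxa2. The single low P array in the Foxa2, Otx2, En2 and Ret panels is P 10. Levels of different pairs are not comparable.

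Ret encodes the receptor tyrosine kinase that signals for the GDNF family of survival factors. Its bright probe set 1370989_at had 12.90, 13.42 and 13.53 in HAD1, against 12.82, 13.45 and 13.82 in LAD1, and 12.97, 13.58 and 13.66 in HAD2, against 13.28, 13.43 and 13.73 in LAD2. Arrays labelled AA had 12.94, 13.32 and 13.73, against 12.86, 13.32 and 13.87 in ANA, and sP had 13.52, 13.71 and 14.02, against 13.50, 13.70 and 13.86 in sNP. Medians within a pair lay close together in these 4 pairs, and the ranges overlapped. The differences of this probe set ran between -0.24 in P/NP and 0.049 in sP/sNP. The other Ret probe sets, 1371112_at and 1388208_a_at, ran between -0.37 and 0.16 and between -0.14 and 0.11.

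Gucy2c encodes guanylyl cyclase C, a membrane receptor best known from the intestine and also found on mouse midbrain dopamine neurons. Signals in HAD1 were 7.02, 7.55 and 8.03, against 6.98, 8.05 and 8.37 in LAD1. Here the medians stood further apart than for any other member in this pair, within wide ranges in both lines. The difference was -0.29 ± 0.18 (limma adjusted p = 0.551). In HAD2/LAD2 it was 0.16 ± 0.15, and the contrast of both pairs was -0.44 ± 0.24 (limma adjusted p = 0.468). P/NP gave 0.22 ± 0.26, AA/ANA 0.014 ± 0.12 and sP/sNP 0.20 ± 0.12.

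Dlk1 encodes a membrane protein related to the Notch ligands and is an imprinted gene that dopamine neurons transcribe. In HAD1 it had 6.31, 6.54 and 6.69, against 6.33, 6.63 and 7.06 in LAD1, a difference of -0.094 ± 0.089. Arrays labelled AA had 11.28, 11.63 and 12.02, against 11.49, 11.78 and 11.98 in ANA, a difference of -0.16 ± 0.093, or -0.082 ± 0.095 without AA 1, AA 19 and ANA 20. In P it had 8.32, 10.77 and 12.41, against 6.96, 10.27 and 12.09 in NP. Both lines of that pair were spread over several log2 units, and the difference was 0.49 ± 0.67. It was 0.13 ± 0.10 in HAD2/LAD2 and 0.14 ± 0.11 in sP/sNP.

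Calb1 encodes calbindin, which buffers calcium and marks dopamine neurons of the ventral tegmental area more than those of the ventral substantia nigra, along with many other neurons. Arrays labelled AA had 11.81, 12.29 and 12.72, against 12.13, 12.50 and 12.91 in ANA. Its median was lower in AA, and the ranges overlapped. The difference was -0.24 ± 0.10 (unadjusted p = 0.0254, limma adjusted p = 0.359). Without AA 1, AA 19 and ANA 20 it was -0.25 ± 0.089 (limma adjusted p = 0.158), again not called. Differences elsewhere were 0.086 ± 0.089 in HAD1/LAD1, -0.15 ± 0.13 in HAD2/LAD2, 0.057 ± 0.28 in P/NP and 0.046 ± 0.094 in sP/sNP.

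Some genes near the members in the dopamine pathway did differ in HAD1/LAD1. Of 22 other dopamine neuron genes 19 were measured, and 2 of them fell in HAD1 while none rose, against 3.02% of all probe sets called. With 1 probe set per gene, 317 of 14217 were called. The list was chosen with earlier results of these data known, so a share above these may be built into the choice. Ddc, which encodes the decarboxylase that makes dopamine, had 12.29, 12.59 and 13.51 in HAD1, against 13.16, 13.49 and 13.88 in LAD1. The difference was -0.69 ± 0.15 (limma adjusted p = 0.0129), with partly overlapping ranges. Gch1, which makes the cofactor of tyrosine hydroxylase, had 9.61, 10.29 and 10.50 in HAD1, against 9.85, 11.14 and 11.43 in LAD1. It differed by -0.76 ± 0.17 (limma adjusted p = 0.0152). In a fit of all 91 arrays, which takes in the wide spread of P and NP, the adjusted p of Ddc was 0.389 and that of Gch1 0.487. Th itself differed by -0.012 ± 0.098 in the pair, with 13.98, 14.35 and 14.50 in HAD1 and 13.89, 14.40 and 14.69 in LAD1.

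No gene of the list was called in the other 4 pairs. The HAD1/LAD1 difference exceeded that of HAD2/LAD2 downward for Ddc (-0.82 ± 0.24, limma adjusted p = 0.0384) and for the nicotinic receptor subunit gene Chrnb3 (-0.39 ± 0.11, limma adjusted p = 0.0214). Chrnb3 was dim, with line means of at most 5.79. Of 26 ligands, co-receptors and partners of the members, such as Gdnf, the Gfra co-receptors and the guanylin genes, 22 were measured and none was called in any pair. The median difference of the dopamine neuron list was -0.095 in HAD1/LAD1, with 0.029 for the partners. For HAD2/LAD2 these medians were 0.080 and -0.0061.

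Single markers of other cells passed the test in these pairs. In HAD1/LAD1 the myelin gene Mobp rose by 0.30 ± 0.066, the endothelial receptor gene Tek rose by 0.39 ± 0.087 and the microglial gene Cx3cr1 fell by 0.33 ± 0.059 in HAD1, each the only gene called of the 4 measured in its list. The list medians were 0.099 for oligodendrocytes, 0.11 for endothelium and -0.072 for microglia. In HAD2/LAD2 the microglial gene P2ry12 rose by 0.54 ± 0.12 and Tek fell by 0.37 ± 0.066 in HAD2, again the only called genes of their lists. The other microglial markers gave -0.16 for Cx3cr1, -0.30 for Aif1 and 0.15 for Csf1r, with a list median of -0.0074, and the endothelial median was -0.028. Their part in the results on the members was not tested. Fewer cells of a type and less RNA per cell cannot be told apart in tissue RNA, here and in all that follows.

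With Th held constant no member passed the test either. With the Th signal of each array as a covariate, none of the 13 probe sets was called in any pair, against 3.26% of all probe sets for HAD1/LAD1, 4.37% for HAD2/LAD2, 0.957% for AA/ANA and 0% for P/NP and for sP/sNP. The smallest adjusted p was that of the Ret probe set 1371112_at in AA/ANA, at 0.30 ± 0.084 (unadjusted p = 0.00187, limma adjusted p = 0.110). The brighter Ret probe set differed there by 0.10 ± 0.10 in the same fit.

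Over the animals of a pair, 8 of the 9 genes followed Th in at least 3 pairs, and Foxa2 passed the main test in none. The line mean was first taken from both genes, so the line difference does not enter. Pearson's r with Th was then tested by 100000 permutations of animals within lines, with Benjamini-Hochberg adjustment over 45 tests (9 genes in 5 pairs). Of these, 35 had an adjusted p under 0.05, 39 by Spearman's rho, and no r was negative. Without the 2 arrays of each pair whose Th was farthest from the median, 28 passed, among them 4 of HAD1/LAD1 and 3 of HAD2/LAD2, against 7 in each with all arrays. That left 26 of the 35 calls and added Foxa2 in AA/ANA and Calb1 in P/NP. The arrays left out were HAD1 22 and LAD1 40, HAD2 5 and LAD2 20, P 10 and NP 8, AA 9 and AA 13, and sP 2 and sP 5. An r of at least 0.6 was reached by 7 of 9 members in HAD1/LAD1, HAD2/LAD2, P/NP and sP/sNP and by 5 in AA/ANA. Among 14216 genes the shares at or above it were 2.53%, 3.24%, 8.6%, 5.61% and 2.64% in the same order of pairs. Members were listed as dopamine neuron genes with earlier results known, so a share above these was built into the choice.

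**Figure D3:**
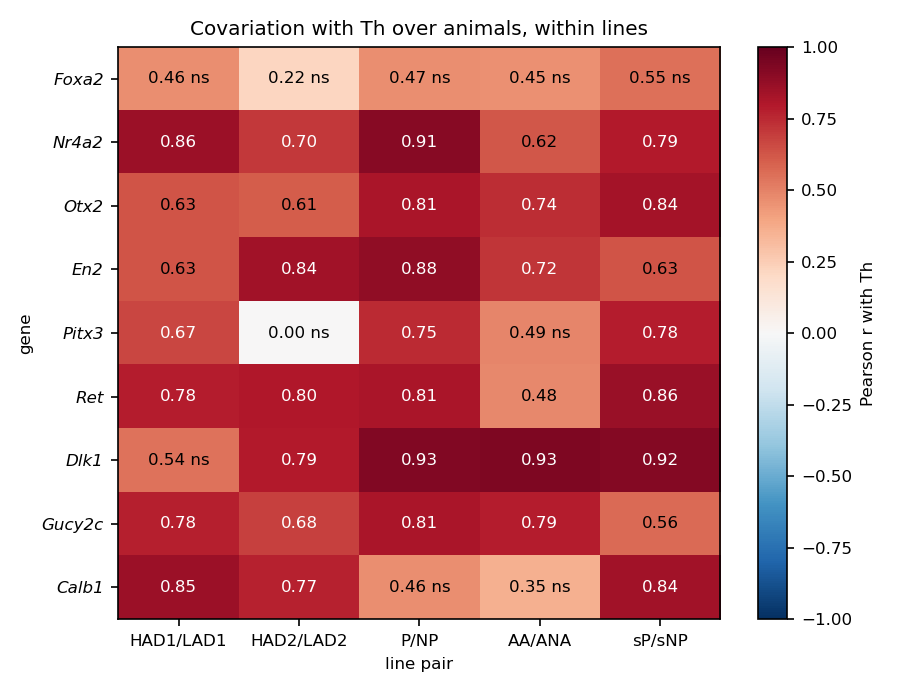
Pearson's r with Th of 9 genes (rows) over the animals of 5 line pairs (columns), after removing line means; colour and number give r, and ns marks an adjusted permutation p of 0.05 or above. Foxa2 is ns in all 5 columns, and Nr4a2, Otx2, En2, Ret and Gucy2c are ns in none.

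How far Th itself varied matters for reading r. Its SD within lines was 0.22 in HAD1/LAD1, 0.23 in HAD2/LAD2, 0.17 in AA/ANA and 0.16 in sP/sNP, against 2.02 in P/NP. The other 4 pairs therefore test small shifts and 1 pair tests large ones. The median r of all genes with Th was between -0.043 and 0.029, a value that the equalising of arrays in RMA tends to keep near 0.

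The promoters of 4 genes are given as a description, and cannot say what the genes that move with Th share. Each is the 250 bases before the annotated transcription start, in RefSeq on the GRCr8 assembly, written 5′ to 3′ along the gene. RefSeq promoters were matched by symbol for 6 of 9 members (Foxa2, Nr4a2, En2, Pitx3, Ret and Dlk1) and for Th. Th is shown as the yardstick, Nr4a2 and Dlk1 as members that followed it, and Foxa2 as the member that passed in no pair. Capitals mark any match to TGACG or TGACGTCA, the short and the full cyclic AMP response element, and to TATAAA, the TATA box.
Th (minus strand, chr1:207508219-207508468): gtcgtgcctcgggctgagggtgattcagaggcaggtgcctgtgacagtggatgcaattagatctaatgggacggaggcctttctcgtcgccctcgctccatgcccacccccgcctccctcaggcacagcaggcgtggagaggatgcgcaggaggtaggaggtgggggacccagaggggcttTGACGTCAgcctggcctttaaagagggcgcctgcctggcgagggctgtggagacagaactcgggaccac
Nr4a2 (minus strand, chr3:62104888-62105137): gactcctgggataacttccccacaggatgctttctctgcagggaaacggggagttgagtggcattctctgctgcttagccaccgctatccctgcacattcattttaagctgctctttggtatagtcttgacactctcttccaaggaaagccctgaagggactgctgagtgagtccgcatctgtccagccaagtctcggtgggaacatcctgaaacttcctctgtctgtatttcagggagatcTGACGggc
Dlk1 (plus strand, chr6:134192347-134192596): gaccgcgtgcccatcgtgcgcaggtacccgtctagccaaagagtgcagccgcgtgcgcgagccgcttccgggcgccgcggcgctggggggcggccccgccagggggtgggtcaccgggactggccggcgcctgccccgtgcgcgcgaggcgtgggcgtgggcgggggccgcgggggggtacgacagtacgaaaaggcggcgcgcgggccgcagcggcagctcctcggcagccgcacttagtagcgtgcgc
Foxa2 (minus strand, chr3:155927509-155927758): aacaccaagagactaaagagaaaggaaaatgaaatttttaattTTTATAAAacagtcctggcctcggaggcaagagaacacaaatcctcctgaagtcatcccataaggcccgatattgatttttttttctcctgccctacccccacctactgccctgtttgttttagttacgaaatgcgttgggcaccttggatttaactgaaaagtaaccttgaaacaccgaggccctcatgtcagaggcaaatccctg

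Both strands were searched for 8 motifs in all 33469 rat promoters of this length. TGACGTCA starts 69 bases before the start of Th and occurs in 1.59% of all promoters. Its short form TGACG, which the full element contains, occurs in 18.2% and starts 8 bases before the start of Nr4a2. None of the 6 member promoters, nor that of Th, held AAAGGTCA (the element bound by the Nr4a family, 1.24% of promoters), its short form AGGTCA (14.1%), TAATCC (bound by Otx and Pitx factors, 6.34%), TAATTA (bound by engrailed and many other homeodomain factors, 4.86%) or TGTTTAC (a forkhead element, 3.21%). TATAAA, present in 12.9%, was found only in Foxa2 among these 7, on either strand in overlapping positions. G and C made up 78.0% of the Dlk1 promoter, 64.0% of that of Th, 52.0% of that of Nr4a2 and 42.8% of that of Foxa2, with a median of 51.2% over all promoters. These letters describe 250 bases and say nothing of sites outside them.

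Dlk1 had the highest r with Th of the 9 members in P/NP, AA/ANA and sP/sNP. Its r was 0.93 in P/NP, 0.93 in AA/ANA and 0.92 in sP/sNP, each with an adjusted p of 6.43e-05 (permutation test; the unadjusted p of 1e-05 is the smallest that 100000 permutations can give). In AA/ANA only 2 of 14216 genes had a higher r, in P/NP 8 and in sP/sNP 13. Without P 10 and NP 8 its r in P/NP was 0.97, below that of Nr4a2 at 0.98, and without AA 1, AA 19 and ANA 20 it was 0.94 in AA/ANA. Per unit of log2 Th, the Dlk1 signal shifted by 1.46 ± 0.17 in sP/sNP and by 0.72 ± 0.073 in P/NP, the latter with P 10 and NP 8 included. In the HAD and LAD lines, where its signal was near or below the 40th percentile, r was 0.79 (HAD2/LAD2, permutation adjusted p = 0.0027) and 0.54 (HAD1/LAD1, permutation adjusted p = 0.0517, not called). The HAD2/LAD2 call was lost without the 2 arrays farthest in Th, at 0.46 (permutation adjusted p = 0.144).

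Nr4a2 followed Th in all 5 pairs. Its r was 0.86 in HAD1/LAD1, 0.70 in HAD2/LAD2, 0.91 in P/NP, 0.62 in AA/ANA and 0.79 in sP/sNP, with permutation adjusted p between 6.43e-05 and 0.0063. Without the 2 arrays farthest in Th, r stayed between 0.55 and 0.98 and passed in all 5 pairs, and without AA 1, AA 19 and ANA 20 it was 0.75 in AA/ANA. The second probe set gave between 0.38 and 0.92, lowest in AA/ANA.

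With all arrays Otx2 and En2 also passed in 5 of 5 pairs. For Otx2, r was between 0.61 in HAD2/LAD2 and 0.84 in sP/sNP, and for En2 between 0.63 in sP/sNP and 0.88 in P/NP. Without the 2 farthest arrays both lost their call in HAD1/LAD1, Otx2 at 0.49 (permutation adjusted p = 0.096) and En2 at 0.42 (permutation adjusted p = 0.193), and En2 did in sP/sNP at 0.51 (permutation adjusted p = 0.0636). In P/NP their r without those arrays, P 10 and NP 8, was 0.71 and 0.88. In AA/ANA it was 0.74 for Otx2 and 0.72 for En2, and 0.79 and 0.79 without AA 1, AA 19 and ANA 20. A shift of 1 log2 unit in Th went with 1.58 ± 0.28 of Otx2 and 0.81 ± 0.27 of En2 in sP/sNP. In P/NP it went with 0.40 ± 0.071 and 0.58 ± 0.076, with P 10 and NP 8 included. Slopes without these 2 arrays were not fitted, and slopes were not compared between pairs.

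Ret had an r of 0.78 in HAD1/LAD1, 0.80 in HAD2/LAD2, 0.81 in P/NP and 0.86 in sP/sNP. In AA/ANA it was 0.48 (permutation adjusted p = 0.046), and 0.84 without AA 1, AA 19 and ANA 20. Without the 2 arrays farthest in Th Ret lost its call in HAD2/LAD2, at 0.53 (permutation adjusted p = 0.0798), and in AA/ANA, at 0.43 (permutation adjusted p = 0.113), and its r was 0.94 in P/NP. AA 19 and ANA 20 had the highest signals of their lines at 1370989_at, 13.73 and 13.87. At 1371112_at AA 19 had the lowest of its line, 9.52, and ANA 20, at 9.70, was among the lower ANA arrays. Over all 20 arrays the 2 probe sets correlated at 0.33, and at 0.90 without the 3 arrays. In the other pairs that r was between 0.84 and 0.96. The third probe set correlated with the first at -0.025 with the 3 arrays and at 0.58 without them.

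Gucy2c, a dimmer signal, passed in every pair with all arrays, with r between 0.56 in sP/sNP and 0.81 in P/NP. Per unit of log2 Th it shifted by 1.46 ± 0.31 in HAD1/LAD1. Without the 2 farthest arrays its r in HAD2/LAD2 was 0.33 (permutation adjusted p = 0.289), against 0.68 with them, and it was 0.86 in P/NP. In AA/ANA it was 0.79, and 0.75 without AA 1, AA 19 and ANA 20. Pitx3 passed in 3 pairs, at 0.67 in HAD1/LAD1, 0.75 in P/NP and 0.78 in sP/sNP. In AA/ANA it was 0.49 (permutation adjusted p = 0.0574) and in HAD2/LAD2 0.0037 (permutation adjusted p = 0.99). Without the 2 farthest arrays it was 0.55 in HAD1/LAD1 (permutation adjusted p = 0.0784) and 0.84 in P/NP, and without AA 1, AA 19 and ANA 20 it was 0.55 in AA/ANA (permutation adjusted p = 0.0528). All of these rest on a dim probe set.

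Calb1 passed in HAD1/LAD1 (0.85), HAD2/LAD2 (0.77) and sP/sNP (0.84). In P/NP its r was 0.46 (permutation adjusted p = 0.0574), and 0.93 without P 10 and NP 8. In AA/ANA r was 0.35 (permutation adjusted p = 0.16), and 0.68 without AA 1, AA 19 and ANA 20. Without the 2 arrays farthest in Th, by contrast, it was 0.039 in AA/ANA, and the HAD2/LAD2 call was lost at 0.47 (permutation adjusted p = 0.115).

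Foxa2 was the one member that passed in no pair in the main test. Its r with Th was 0.46 in HAD1/LAD1, 0.22 in HAD2/LAD2, 0.47 in P/NP, 0.45 in AA/ANA and 0.55 in sP/sNP. The permutation adjusted p was between 0.0517 and 0.465. Without P 10 and NP 8 its r in P/NP was -0.058, although Th still ranged between 11.38 and 14.95 there while Foxa2 stayed between 9.74 and 10.86. By Spearman's rho 2 of its 5 pairs passed, with 0.50 in AA/ANA and 0.61 in sP/sNP. Foxa2 also passed in AA/ANA without the 2 arrays farthest in Th, at 0.59 (permutation adjusted p = 0.0284). In sP/sNP it passed with both lines pooled, at 0.57 (permutation adjusted p = 0.021), and in the distribution set that holds that pair, at 0.52 (permutation adjusted p = 0.0246). Without AA 1, AA 19 and ANA 20 its r in AA/ANA was 0.43. Whether its r differs from those of the other members was not tested.

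In P/NP 2 arrays had Th more than 3 log2 units below the median of their line, and the members were low in them in different combinations. In P 10, Th was 9.12, and Foxa2, Nr4a2, Otx2, En2, Pitx3, Ret and Gucy2c lay below all 17 other P and NP arrays. Pitx3, at 5.04 against a lowest of 5.14, and Gucy2c, at 6.06 against 6.17, did so only just. The share of all genes below the other arrays was not counted. Foxa2 was 5.43, against 9.74 to 10.86 in the other arrays. En2 was 5.05, against 8.13 to 10.77, and Otx2 was 5.61, against 8.51 to 10.31. Ret was 9.27, against 12.01 to 13.89. Calb1, at 12.23, was within the others' range of 10.60 to 12.51, as was Dlk1 at 8.61.

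NP 8 had Th at 8.23 and another profile. Dlk1 was 6.96, against 8.32 to 12.41 in the other 17 arrays, and Nr4a2 was 7.98, against 8.12 to 11.33. Otx2, at 8.07, and En2, at 7.89, lay just below the others. Foxa2 was 10.81 and stood near the top of the others' range, and Ret, at 12.37, and Calb1, at 11.43, lay within it. In P 10 the differences from the median of the others were -5.16 for Foxa2, -4.57 for En2, -3.80 for Ret and -3.48 for Otx2. In NP 8 they were 0.21 for Foxa2 and -3.81 for Dlk1.

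**Figure D4:**
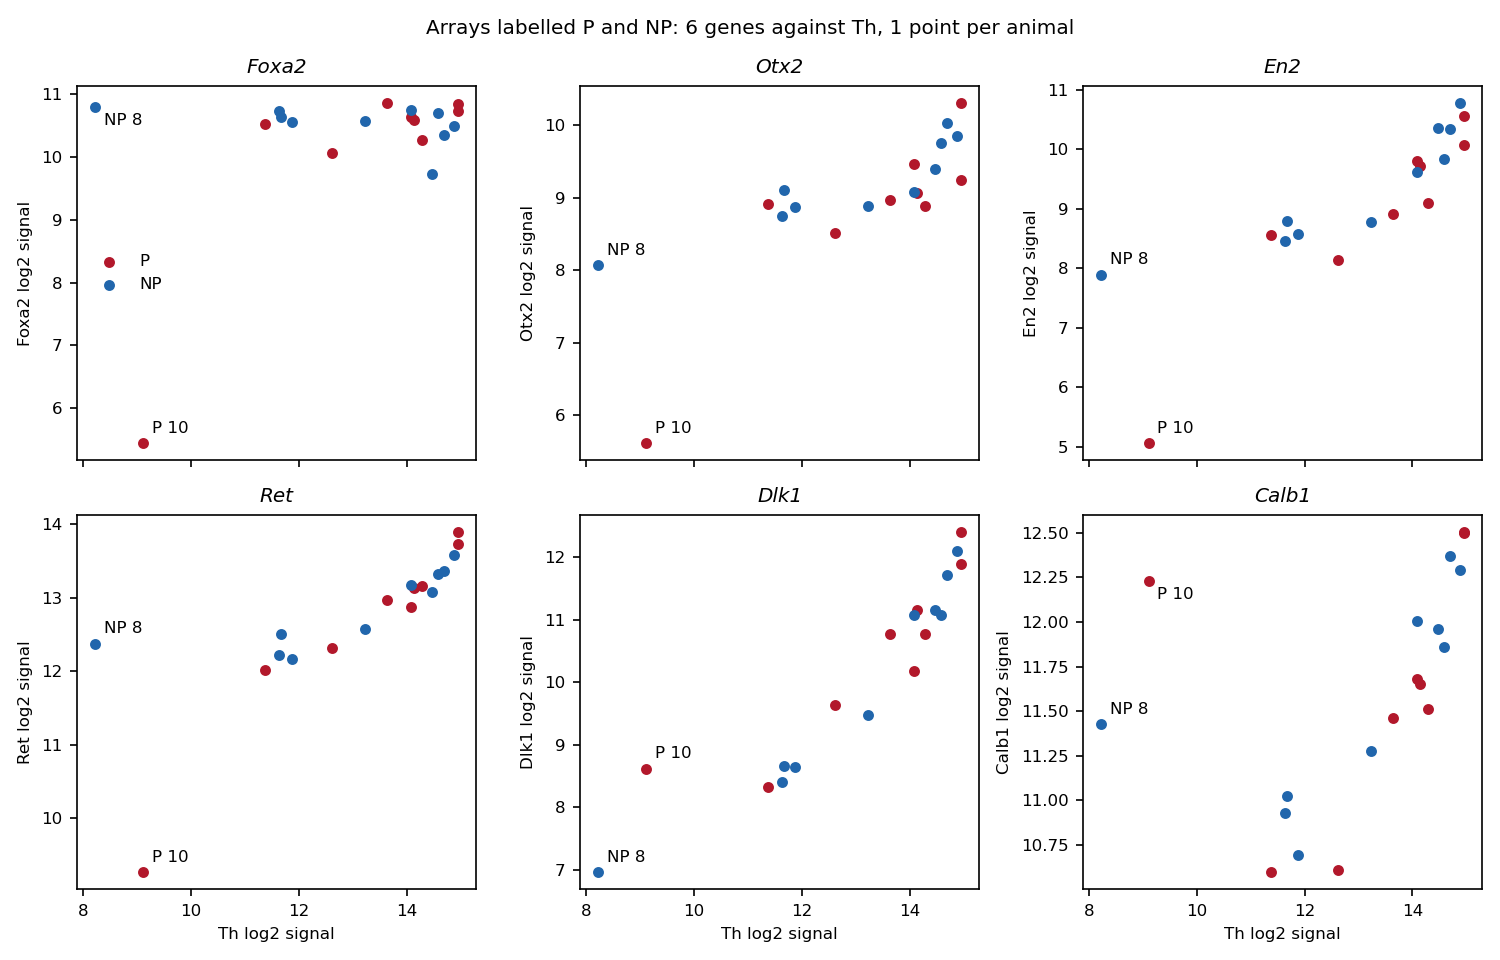
Log2 signal of Foxa2, Otx2, En2, Ret, Dlk1 and Calb1 (y axes) against Th (x axes) in arrays labelled P (red) and NP (blue), 1 point per animal. P 10 and NP 8 sit far left at Th of 9.12 and 8.23; among the other 17, Dlk1, Ret, En2 and Calb1 climb with Th while Foxa2 stays level.

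Marker lists of other cells also stood apart in both arrays. In P 10 the mean of 3 GABA neuron markers was 12.81, against 10.15 to 11.90 in the 17 others, and that of 2 glutamate neuron markers was 7.47, against 8.33 to 10.05. Its mean of 3 red nucleus markers was 8.05, below 8.90 to 12.30. In NP 8 the red nucleus mean was 12.41, just above that range, and the GABA mean was 9.32, below the others. Of 11 lists of other cells, P 10 was outside the others' range in 8 and NP 8 in 6. Their part in the low member signals was not tested.

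Members also went with each other over animals, Foxa2 the least with several of them. The closest pairs of genes, by mean r over the 5 line pairs, were Nr4a2 with Otx2 (0.77), Dlk1 with Gucy2c (0.77) and Nr4a2 with Ret (0.74). Foxa2 was closest to Otx2 (0.69, between 0.48 and 0.80) and Nr4a2 (0.55). It had a mean r of 0.19 with En2 and -0.047 with Calb1. En2 and Calb1 went with each other at 0.68. Without P 10, NP 8, AA 1, AA 19 and ANA 20 the mean r was 0.82 for Nr4a2 with Ret, 0.78 for Nr4a2 with Otx2, 0.77 for Dlk1 with Gucy2c and 0.81 for En2 with Calb1. For Foxa2 it was then 0.57 with Otx2 (between 0.16 and 0.79), 0.49 with Nr4a2, 0.079 with En2 and 0.083 with Calb1. These r share arrays and are given as a description.

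**Figure D5:**
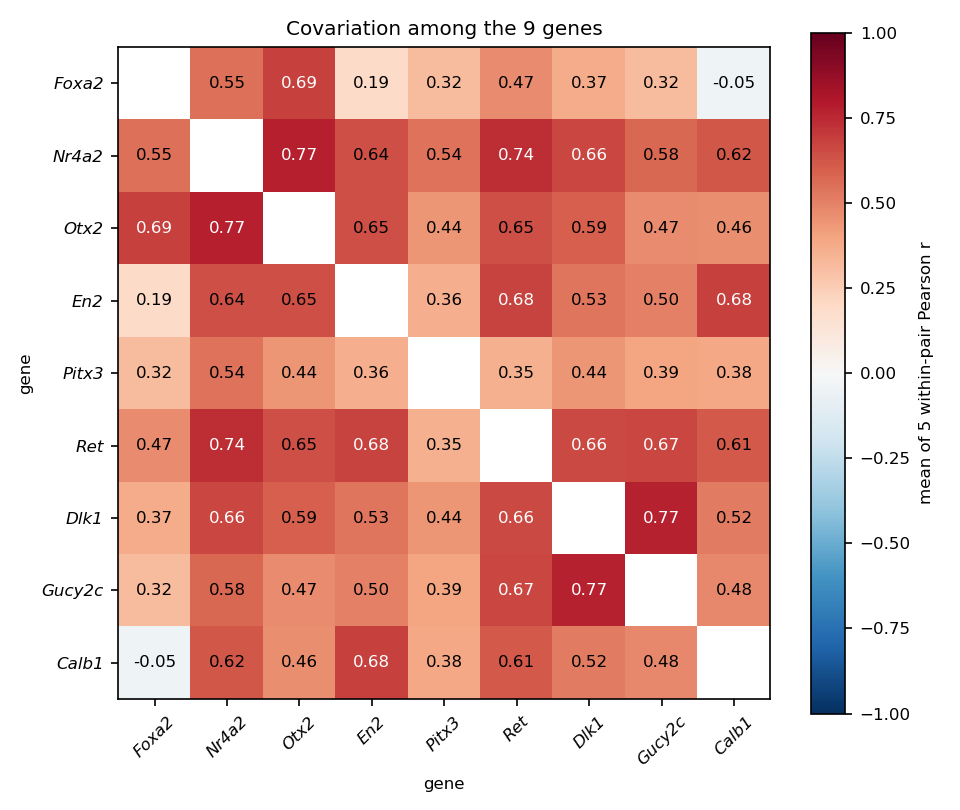
Mean over 5 line pairs of Pearson's r between each 2 of the 9 genes (rows and columns), from values with line means removed. Nr4a2 with Otx2 is highest at 0.77, and Foxa2 with Calb1 is lowest at -0.05.

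Foxa2 had a positive r with the mean of the glutamate neuron markers (Slc17a6 and Slc17a7) in 5 of 5 pairs, between 0.42 and 0.81, and a negative r with the GABA neuron markers in 5 of 5, between -0.81 and -0.20. With microglia markers it was between -0.74 and -0.32. Calb1 had a negative r with the glutamate neuron markers in 5 of 5 pairs, between -0.70 and -0.27, and with the red nucleus markers, between -0.67 and -0.59. Without the same 5 arrays the signs held in 5 of 5 pairs for these lists, with Foxa2 between 0.42 and 0.73 for glutamate neuron markers, between -0.81 and -0.20 for GABA neuron markers and between -0.74 and -0.17 for microglia markers. With all arrays, further lists also kept 1 sign in 5 of 5 pairs. Foxa2 was positive with cerebellum markers (0.27 to 0.76) and negative with astrocyte markers (-0.68 to -0.15). Calb1 was negative with cerebellum markers (-0.74 to -0.44) and endothelium markers (-0.67 to -0.041). This was not particular to these 2 genes. Nr4a2 was negative with red nucleus (-0.61 to -0.20) and cerebellum markers (-0.59 to -0.039) and positive with hypothalamic ones (0.060 to 0.42). Dlk1 was negative with endothelium markers (-0.67 to -0.0080) and En2 positive with meningeal ones (0.17 to 0.37). Th itself was negative in 5 of 5 pairs with red nucleus (-0.59 to -0.11), cerebellum (-0.58 to -0.052) and endothelium markers (-0.57 to -0.022). Foxa2 and Calb1 are known in other neurons than dopamine neurons, and the part of dissection in these values was not tested.

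The genes most like each member, by mean r over the 5 pairs among 14217 genes, included known dopamine neuron genes for some members. Dlk1 was most like Drd2, the dopamine autoreceptor gene (0.87), Apba1 (0.85) and Slc18a2, the vesicular monoamine transporter gene (0.83). Ret was most like F2r (0.87), Slc6a3, the dopamine transporter gene (0.83), and Gpr158 (0.81). Nr4a2 was most like Bnc2 (0.87), Gfra1, a co-receptor of Ret (0.84), and F2r (0.84). For Otx2 these were Plod2 (0.78), Nr4a2 (0.77) and Slc39a4 (0.77), and for En2 Greb1 (0.81), Sdc2 (0.79) and Plcb4 (0.79). Gucy2c was most like Spag16 (0.84), Gpr161 (0.83) and Clptm1l (0.83).

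Calb1 was most like Glce (0.85), Zcchc12 (0.85) and Sdc2 (0.84), with Zcchc12 at 0.81 or more in every pair. Foxa2 was most like Necab3 (0.81), Shisa3 (0.74) and Nnmt (0.73), none of them in the list of dopamine neuron genes. Without P 10, NP 8, AA 1, AA 19 and ANA 20 the mean r of Foxa2 with Necab3 was 0.70, and its lowest was 0.26, against 0.65 with all arrays. Pitx3 had no gene above 0.60, with Ntsr1, the neurotensin receptor gene of dopamine neurons, first (0.60), then Ddah1 (0.60) and Nxph3 (0.59).

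A sign of RNA quality was compared by line, with no test. The 3′-minus-5′ signal of the Gapdh control probe sets, which grows as RNA shortens, was 1.89 ± 0.14 (SD) in HAD1 and 1.78 ± 0.10 in LAD1, 3.42 ± 0.31 in HAD2 and 3.58 ± 0.38 in LAD2, and at most 0.57 in the lines of the other pairs. For the actin control probe sets it was 3.73 ± 0.16 in HAD1, 3.57 ± 0.12 in LAD1, 4.34 ± 0.24 in HAD2 and 4.49 ± 0.22 in LAD2. In the lines of the other pairs the actin means were between 1.95 in P and 2.84 in ANA.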

How the data were processed

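RNA of the ventral tegmental area was measured on 91 Affymetrix arrays, 1 per animal. Extraction used Trizol and then RNeasy columns, and amplification took 2 cycles, per the labels' protocols. Values deposited by the authors are log2 signals, and the submitters' processing notes name RMA. This method subtracts background, equalises arrays and summarises probes, so a shift shared by all probe sets is lost. Of 31099 probe sets, 57 controls were left out. The platform annotation gave 20826 of the others 1 symbol, 436 several and 9780 none.

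Each pair was fitted alone with limma 3.58.1 (R 4.3.3, lmFit and eBayes, no filter) on 2 line means, with Benjamini-Hochberg adjustment over 31042 probe sets. Pearson's r used values minus line means and 100000 two-sided permutations within lines (numpy 2.4.6, scipy 1.17.1). Labels do not say more about replicates than that each is 1 animal. The fit was tested on simulated data: of 50 probe sets changed by 0.5 it recovered 88% in HAD1/LAD1 and HAD2/LAD2, 78% in P/NP and 92% in AA/ANA and sP/sNP. Of 50 changed by 0.25 it recovered 46% in HAD1/LAD1, 38% in HAD2/LAD2, 22% in P/NP, 44% in AA/ANA and 52% in sP/sNP. These rates hold for simulated probe sets, and recovery of a change in the members was not tested. In P/NP the members' SE, with 1 probe set per gene, ran between 0.25 for Pitx3 and 0.67 for Dlk1. The median SE of all probe sets there was 0.075. In the other pairs the members' SE also lay above that median. It was 0.070 to 0.18 against 0.064 in HAD1/LAD1 and 0.085 to 0.15 against 0.066 in HAD2/LAD2. In AA/ANA it was 0.086 to 0.12 against 0.072, and in sP/sNP 0.071 to 0.13 against 0.057. The simulated rates therefore do not apply to the members in any pair, least of all in P/NP. The simulated fits called 160 probe sets in P/NP and 184 in sP/sNP, where the fits of the data called 0.

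All 9 members were named; a member's levels are those of its probe set with the highest mean. Up to 4 called genes of each context list were named by smallest p, and the 3 genes with the highest mean r as most alike. Members and lists were chosen with earlier results of these data known. Alternatives changed the filter, scaling, variance prior, weights, arrays, probe sets, Th covariate and fit. Cell numbers and RNA per cell were not measured.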

Additional observations from a re-analysis of the deposited data

Results flagged for a closer look

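Values far from the rest of their line were looked for in 90 groups (9 genes in 10 lines), and 10 were found. Chance gives about 1 in 20 groups. Of these, 4 were in the array P 10 of low Th: Foxa2 at 5.43, Otx2 at 5.61, En2 at 5.05 and Ret at 9.27, each below the rest of its line. Foxa2 was also far above the others of LAD2 in LAD2 13 at 10.46 and far below those of NP in NP 10 at 9.74. The array sNP 4 was low for En2 at 10.25 and for Calb1 at 12.29. Calb1 was low in HAD2 5 at 11.78, and Pitx3, a dim signal, was high in AA 13 at 6.78.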

How the results depend on the processing

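No member probe set was called in any pair under any alternative run: all 605 alternative values of the member differences, and all 1183 with 1 array left out, stayed on the same side of the threshold. Counts over all probe sets did move. With 1 probe set per gene, 317 were called in HAD1/LAD1, 585 in HAD2/LAD2 and 124 in AA/ANA, where fewer are tested. In AA/ANA 1326 were called with array weights, 1007 without the arrays of another distribution set and 913 in 1 fit of all arrays, against 335; the cause was not tested. With 1 array left out, between 734 and 1498 were called in HAD1/LAD1 (highest without LAD1 37), between 1200 and 1522 in HAD2/LAD2, between 242 and 628 in AA/ANA (highest without ANA 20) and 0 in P/NP and sP/sNP. Of 225 alternative values of r with Th, 165 kept a call, 10 lost one, 17 gained one and 33 were called in neither; leaving out the arrays of another distribution set changed the arrays of AA/ANA only. Without the 2 arrays farthest in Th, 4 members passed in HAD1/LAD1 and 3 in HAD2/LAD2. Ddc and Gch1 lost their calls in the fit of all arrays (limma adjusted p = 0.389 and 0.487) and kept them in 14 other values and all 36 with 1 array left out. Animal numbers shared by P and NP (9) and by sP and sNP (8) were not used as pairs in the main fit. The correlation of same-numbered animals was between -0.70 and 0.69 in P/NP and between -0.29 and 0.21 in sP/sNP. This cannot settle whether the numbers pair animals. With the number as a replicate block 0 probe sets were called in either pair, and 863 and 999 had an unadjusted p under 0.05. The same arrays without the block gave 684 and 880. Only 1 Th probe set has a single symbol, so another was not run. Dim signal limits Pitx3, and Dlk1 in the HAD and LAD lines.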
